A study of Mus musculus with 35 samples.

Results

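The interferon response genes described here are 9 genes, Oas1a, Isg15, Irf7, Ifit1, Ifit2, Ifit3, Usp18, Ifi44 and Ifi202b, found by their names on the array among 18671 genes tested. They were carried by 11 of 41174 probes, and all 11 passed the filter on dim probes, since Ifit2 and Ifi44 each had a second, dimmer probe. Ifi202b was selected on its log2 ratios in saline aortas, which changed with time, so its saline and 28-day values are given as a description with no test. Its comparisons with saline at 7 and 14 days share saline aortas used in that choice. They enter the counts below, where Ifi202b never passed, and are no evidence about this gene. No measured value was stated as the ground for the other 8, but they were chosen with earlier results of these arrays known. The aortas came from male ApoE-/- mice, which lack apolipoprotein E in every group and develop high blood cholesterol. The age of the mice is given as a range of 12 to 14 weeks in every group. A minipump under the skin delivered angiotensin II (Ang II, a hormone that raises blood pressure) at 1000 ng/kg/min, or saline. Groups were dissected Ang II at 7 days (3 aortas), Ang II at 7 days (4), Ang II at 14 days (5) and Ang II at 28 days (6), with saline at 7 days (6), 14 days (6) and 28 days (5). Each of the 35 arrays held 1 whole suprarenal aorta in Cy5 beside a common mouse reference RNA in Cy3, so every level below is a log2 ratio of aorta to that reference and levels are compared between aortas, never between genes.

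Interferons are secreted when a cell senses viral or misplaced nucleic acid or microbial products. Type I interferons bind the receptor made of Ifnar1 and Ifnar2, which acts through the kinases Jak1 and Tyk2 to form a complex containing Irf9 that binds a repeated GAAA motif in DNA and switches on the genes described here. Macrophages and other immune cells as well as cells of the vessel wall can respond, and in a whole aorta more cells of a type and more RNA per cell cannot be told apart.

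Promoter sequences were available from RefSeq (GRCm38.p6) for 8 of the 9 members, all but Usp18, from 250 bases before to 50 bases after the gene's start, and those of the members with the motif are shown because that motif is what the interferon-activated complex reads. The pattern searched was GAAA, any 2 bases and GAAA again, on either strand (on the other strand it reads TTTC, any 2 bases, TTTC). It was found in 4 of the 8 members with an entry, Oas1a, Isg15, Ifit1 and Ifit3, and in 3.44 percent of all 32851 promoters. Oas1a lies at chr5:120907476-120907775 on the minus strand, Isg15 at chr4:156200769-156201068 on the minus strand, Ifit1 at chr19:34640639-34640938 on the plus strand and Ifit3 at chr19:34583279-34583578 on the plus strand, and each window spans the start of the gene. Capitals mark the matches, which overlap one another in Oas1a and Isg15.
Oas1a: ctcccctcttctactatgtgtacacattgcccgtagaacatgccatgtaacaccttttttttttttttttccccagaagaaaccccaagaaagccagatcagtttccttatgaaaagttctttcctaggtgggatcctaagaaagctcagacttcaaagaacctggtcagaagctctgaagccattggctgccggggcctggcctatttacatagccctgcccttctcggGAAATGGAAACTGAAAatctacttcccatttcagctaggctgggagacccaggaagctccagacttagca
Isg15: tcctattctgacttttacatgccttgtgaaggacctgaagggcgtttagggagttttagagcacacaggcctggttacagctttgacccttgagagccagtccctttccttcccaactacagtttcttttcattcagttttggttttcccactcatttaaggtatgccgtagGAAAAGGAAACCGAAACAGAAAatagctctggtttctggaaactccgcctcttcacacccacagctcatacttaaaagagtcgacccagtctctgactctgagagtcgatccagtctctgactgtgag
Ifit1: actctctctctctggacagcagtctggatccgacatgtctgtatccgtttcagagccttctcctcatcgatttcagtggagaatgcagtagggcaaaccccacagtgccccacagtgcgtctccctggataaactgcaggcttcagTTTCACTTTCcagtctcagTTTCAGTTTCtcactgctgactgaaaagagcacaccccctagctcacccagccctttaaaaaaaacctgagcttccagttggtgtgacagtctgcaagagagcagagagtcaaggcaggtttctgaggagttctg
Ifit3: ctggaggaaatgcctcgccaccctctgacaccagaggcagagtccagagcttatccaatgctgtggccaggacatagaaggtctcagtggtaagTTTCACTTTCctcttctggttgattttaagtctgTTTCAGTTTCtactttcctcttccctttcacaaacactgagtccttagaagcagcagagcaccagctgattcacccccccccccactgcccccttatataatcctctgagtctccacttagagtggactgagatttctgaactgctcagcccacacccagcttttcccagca
In Isg15 the pattern occurred 3 times in a row, and in Oas1a 2 overlapping copies stood close to the gene's start. A match is a description of letters and no measure of binding. No match was found in the windows of Ifit2, Irf7, Ifi44 and Ifi202b.

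The share of an array's spots whose aorta signal exceeded background by the scanner software's own test (called well above background below) ran between 45 and 84.8 percent, with a median of 57.1 percent. Smooth muscle was present on every array by its defining markers, since Myh11, Acta2, Cnn1 and Tagln were well above background on 35 of 35 arrays. The mean log2 ratio of 8 brown fat markers lay between 2.51 and 5.53, and that of 6 white fat markers between 3.73 and 5.64, over all aortas. Precision is limited by how many arrays each group had, and each p-value rests on the variation among these aortas.

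After 7 days of Ang II, 3 of the 9 members were higher than in saline aortas and none was lower. These were Oas1a, an enzyme that makes the second messenger activating RNase L, Isg15, a ubiquitin-like protein attached to other proteins, and Irf7, a transcription factor that amplifies interferon production. The other 6, among them all 3 Ifit genes, did not pass the test. Among all genes 27.2 percent passed in either direction and 14.5 percent were higher, so 3 of 9 is near the first of these shares.

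Oas1a had log2 ratios of 0.64, 1.22, 0.84 and 0.67 in the 4 Ang II aortas, against -0.43, -0.54, -0.64, -0.86, -0.69 and -0.49 (lowest -0.86, median -0.59, highest -0.43) in the 6 saline aortas. Every Ang II aorta lay above every saline aorta. The mean was 0.84 ± 0.267 (SD, n = 4) in Ang II aortas and -0.61 ± 0.157 (SD, n = 6) in saline aortas, a log2 difference of 1.45 (SE 0.246, limma adjusted p = 9.14e-05), or 2.73-fold.

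The Isg15 probe carries that gene's name in the scanner files, which nonetheless place it on another chromosome than RefSeq does, so whether its signal comes from Isg15 alone was not tested. Isg15 had log2 ratios of -0.28, 0.83, 0.71 and 0.23 in the 4 Ang II aortas, against a lowest of -1.23 and a highest of -0.76 in the 6 saline aortas. The groups did not overlap. The log2 difference was 1.32 (SE 0.240, limma adjusted p = 0.000199), or 2.49-fold. Oas1a and Isg15 were thus 2 of 9 members whose groups did not overlap, which in this direction held for 12.3 percent of all genes.

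Irf7 had log2 ratios of -0.61, 0.11, -0.27 and -0.86 in Ang II aortas, against a lowest of -1.51 and a highest of -0.84 in saline aortas. The lowest Ang II aorta fell just inside the saline range. The log2 difference was 0.65 (SE 0.233, limma adjusted p = 0.038). This call did not hold without Ang II replicate 1, 2 or 3 or without saline replicate 1 or 2, each left out in turn, nor with median centring, scale normalization, no filter on dim probes or the slide as a block, with adjusted p-values over these from 0.0522 to 0.426. The log2 difference in these ranged from 0.46 with median centring to 0.75 with the slide block. The calls of Oas1a and Isg15 held each time an aorta was left out.

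The arrays had been scanned on 2 days. Among those of the first day the 7-day log2 difference was 1.38 for Oas1a (limma adjusted p = 0.00266), 1.28 for Isg15 (limma adjusted p = 0.0201) and 0.79 for Irf7 (limma adjusted p = 0.0571). On the second day, which held 1 Ang II aorta of this time, it was 1.52 for Oas1a, 1.58 for Isg15 and 0.60 for Irf7, and none of these passed (limma adjusted p = 0.193, 0.0997 and 0.506).

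**Figure D1:**
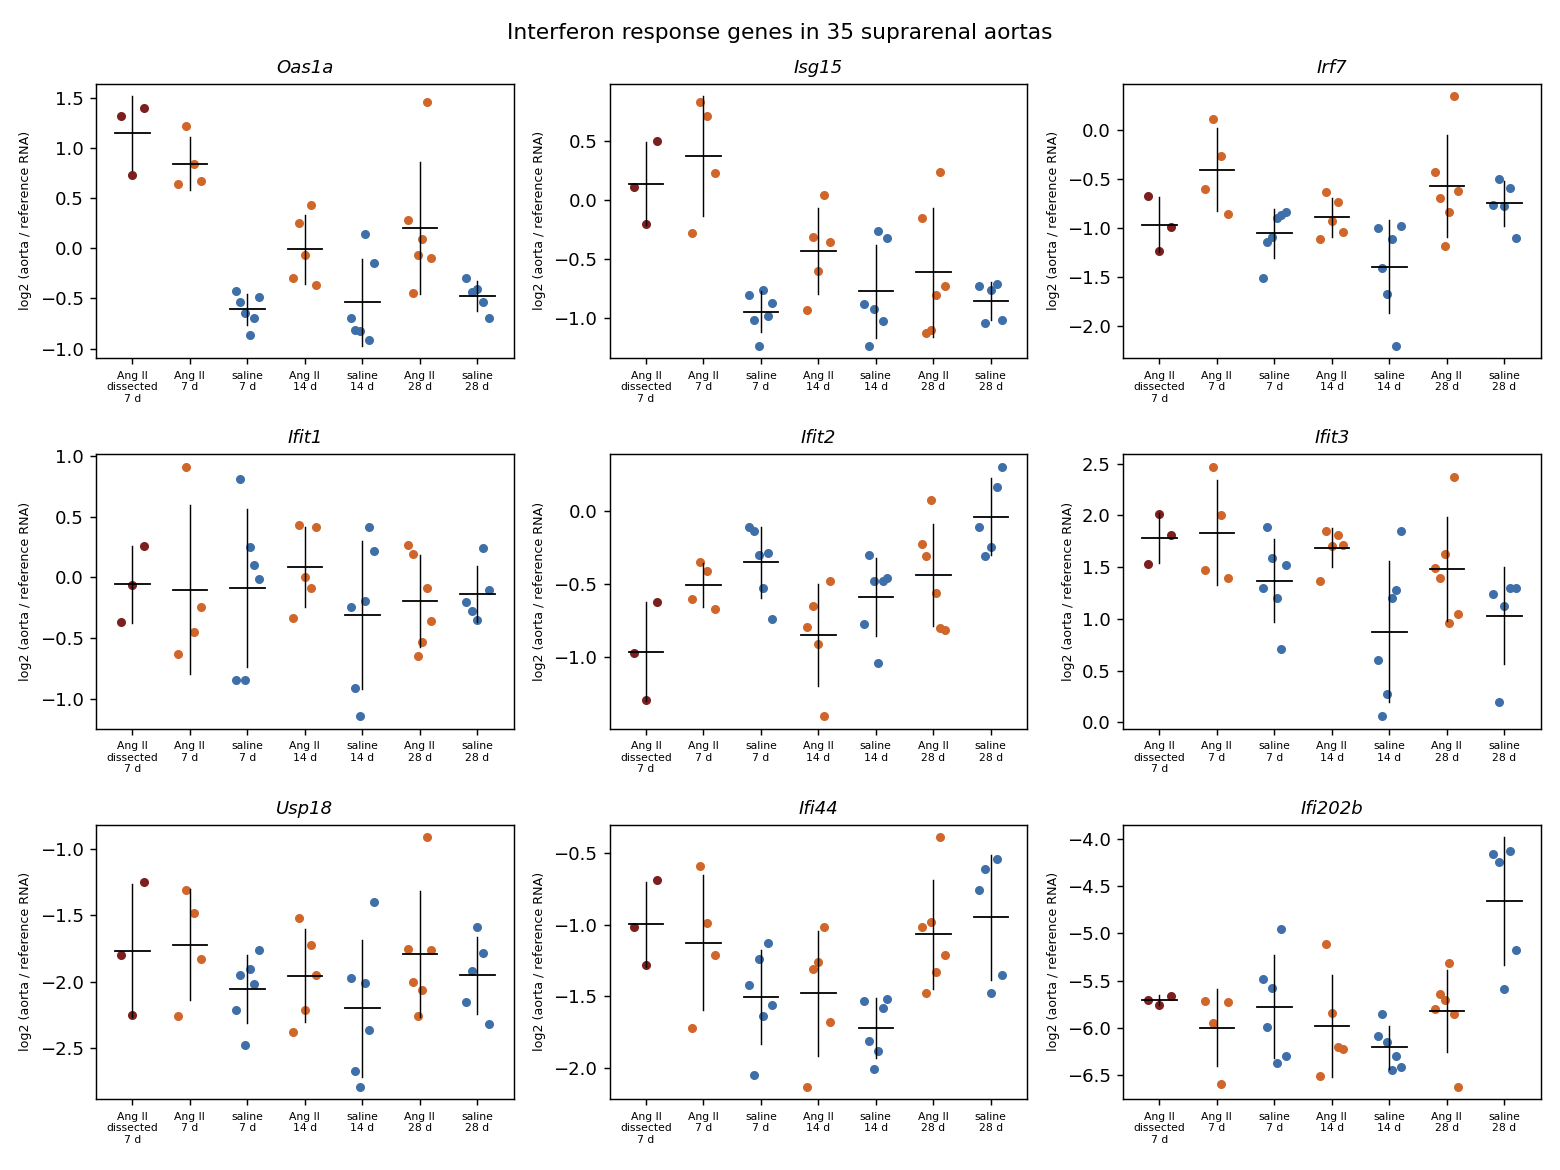
Log2 ratio of aorta to reference RNA (vertical axes) for the 9 members in 7 groups (horizontal axes), 1 point per aorta, with the group mean (horizontal bar) and SD (vertical bar). In Oas1a and Isg15 both 7-day Ang II groups lie above all saline aortas of 7 days, while the groups of Ifit1 overlap and Ifi202b is highest in saline aortas of 28 days.

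The remaining members gave small or variable differences at 7 days. Ifit3, a partner of Ifit1 that binds it and stabilises it, had ratios of 1.47, 2.47, 2.00 and 1.39 in Ang II aortas, against 0.71 to 1.89 in saline aortas, a log2 difference of 0.47 with a 95% interval from -0.14 to 1.07. Ifit1, which binds foreign RNA ends, differed by -0.01 with an interval from -0.65 to 0.62. Ifit2 differed by -0.16, Usp18, the protease that removes Isg15 and damps interferon signalling, by 0.33, and Ifi44, an interferon-induced protein, by 0.38, with intervals that included 0 for each. Over 24 alternative settings the difference of Ifi44 ranged from 0.19 to 1.06, and it passed in 1 of them (limma adjusted p = 0.0413). Ifi202b, a mouse DNA-binding protein of the Ifi200 family, differed by -0.22 on the log2 scale. This is a description, since these saline aortas were part of its choice.

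Dissected aortas, in which the wall had split by 7 days of Ang II, were set against the same saline aortas. Oas1a and Isg15 were higher and Ifit2 was lower, so 3 of 9 members passed, beside 36.5 percent of all genes, of which 18.9 percent were higher and 17.6 percent lower. Irf7 did not pass in this comparison. Nor did Ifi44, at 0.51 with a 95% interval from -0.01 to 1.04 (limma adjusted p = 0.117), though it passed in 1 of 22 alternative settings (limma adjusted p = 0.0211). All 3 dissected aortas were scanned on the second scan day, and on that day Oas1a and Isg15 passed against the saline aortas scanned with them while Ifit2 did not.

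Oas1a had log2 ratios of 1.32, 0.73 and 1.40 in dissected aortas, against -0.86 to -0.43 in saline aortas. No dissected aorta reached into the saline range. The log2 difference was 1.76 (SE 0.270, limma adjusted p = 7.71e-06), or 3.38-fold. Isg15 had log2 ratios of 0.11, -0.20 and 0.50 in dissected aortas, all above the saline range of -1.23 to -0.76, and differed by 1.08 (SE 0.263, limma adjusted p = 0.00164). These were the 2 members whose groups did not overlap, as held in this direction for 17.2 percent of all genes.

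Ifit2 had log2 ratios of -0.97, -1.29 and -0.62 in dissected aortas, against -0.11, -0.14, -0.30, -0.53, -0.29 and -0.74 in saline aortas. The highest dissected aorta lay inside the saline range. The log2 difference was -0.61 (SE 0.201, limma adjusted p = 0.0171). This call rests on a weak signal. In dissected aortas it was 25.7 to 43.9 units and well above background on 2 of 3 arrays, against 96.1 to 272 units in saline aortas. The second probe of Ifit2 was well above background on 0 of 3 dissected and 1 of 6 saline arrays. It gave ratios of 0.07, 0.14 and -0.67 in dissected aortas, against -0.44 to -0.02 in saline aortas. The probes thus disagreed, but a probe this dim cannot decide the direction. The call was lost when both probes were averaged, at -0.29. It was also lost without dissected replicate 1 or 2, with differences of -0.61 and -0.45, and with the slide as a block, at -0.64. The call held with the scanner software's ratio and the series table, at -1.55, and with median centring, at -1.22. Its size thus depended on the processing.

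Median centring turned the direction of most members in dissected aortas. With loess the median log2 difference of the 8 members other than Ifi202b was 0.35, beside -0.04 for all genes, and with plain median centring it was -0.41, beside -0.36 for all genes. It was 0.38 with scale normalization and 0.49 with the scanner software's ratio and with the series table. Under median centring 13.8 percent of all calls were higher, against 51.7 percent with loess. Oas1a remained called there, and Isg15 had a difference of 0.32 and did not pass.

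Dissected aortas were also set against the 4 non-dissected Ang II aortas of 7 days. None of the 9 members passed the limma test, beside 8.03 percent of all genes, and 2 had an unadjusted p under 0.05. Irf7 differed by -0.56 with an interval from -1.13 to 0.00 (limma adjusted p = 0.230), and Ifit2 by -0.45 (limma adjusted p = 0.217). Oas1a differed by 0.31 with an interval from -0.29 to 0.90, and Isg15 by -0.24 with an interval from -0.82 to 0.34. Ifit2 passed here under 4 alternatives named in the closing section.

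After 14 days of Ang II none of the 9 members passed the limma test, beside 2.4 percent of all genes, and 3 had an unadjusted p under 0.05. Oas1a had log2 ratios of -0.30, 0.25, -0.07, 0.43 and -0.37 in Ang II aortas, against a lowest of -0.91, a median of -0.75 and a highest of 0.14 in saline aortas. The groups overlapped. Its log2 difference was 0.53 (SE 0.231, limma adjusted p = 0.214), and that of Isg15 was 0.34 (limma adjusted p = 0.419). Ifit3 had ratios of 1.37, 1.85, 1.70, 1.81 and 1.71 in Ang II aortas, against 0.06 to 1.85 in saline aortas. Its log2 difference was 0.81 (SE 0.279, limma adjusted p = 0.112), and it passed when saline replicate 6 was left out.

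After 28 days of Ang II none of the 8 members tested passed in limma, beside 0.9 percent of all genes, and 2 had an unadjusted p under 0.05. Oas1a had log2 ratios of 0.28, -0.45, -0.07, 0.09, 1.46 and -0.10 in Ang II aortas, against -0.30, -0.44, -0.41, -0.54 and -0.69 in saline aortas. One Ang II aorta, replicate 5, stood far above the others. The log2 difference of Oas1a was 0.68 (SE 0.231, limma adjusted p = 0.153), that of Isg15 0.24 (limma adjusted p = 0.677) and that of Ifit2 -0.40 (limma adjusted p = 0.263).

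**Figure D2:**
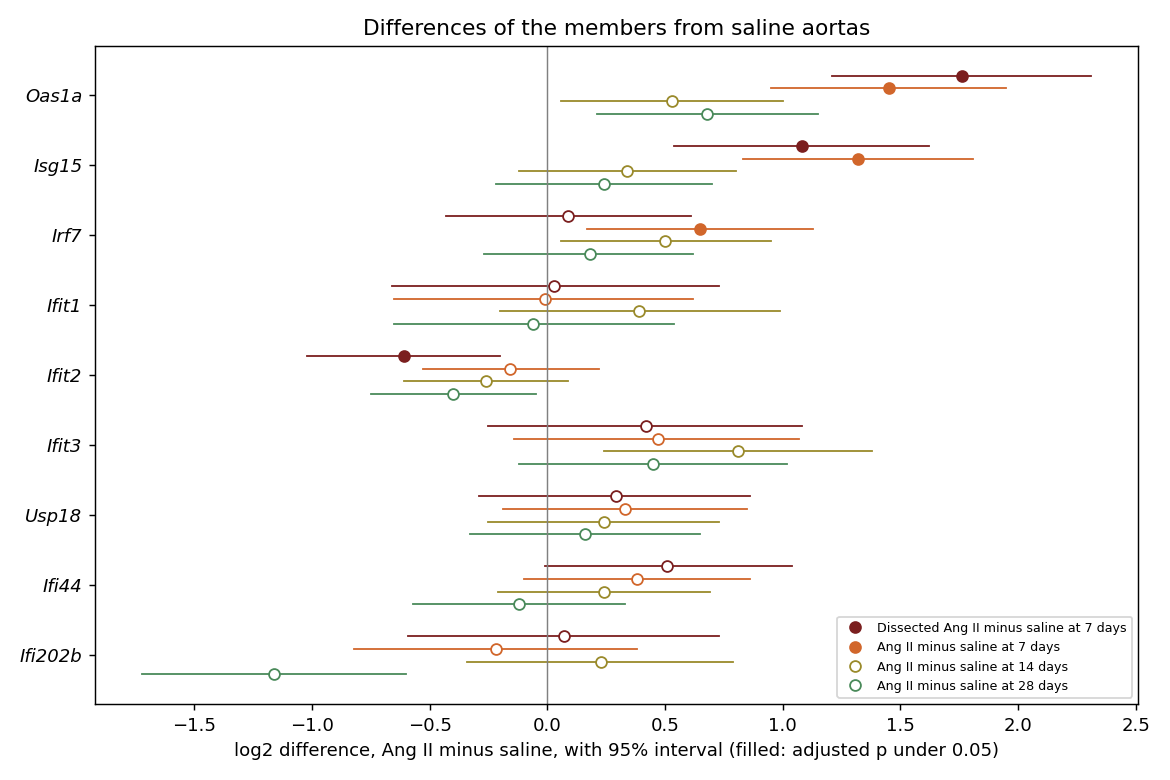
Log2 difference of Ang II minus saline aortas (horizontal axis) for each member (vertical axis) in 4 comparisons, with 95% intervals; filled points passed an adjusted p of 0.05. Oas1a and Isg15 are filled in both 7-day comparisons, and no point is filled at 14 or 28 days. The dissected and non-dissected comparisons at 7 days share their saline aortas. Intervals of Ifi202b are descriptions, since it was chosen on its saline ratios.

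A moderated F test in limma asked whether Ang II acted differently at 7, 14 and 28 days. None of the 8 members tested passed, beside 1.48 percent of all genes, and 2 had an unadjusted p under 0.05. The nearest were Isg15 (limma adjusted p = 0.106) and Oas1a (limma adjusted p = 0.181). Without Ang II 28-day replicate 5 both passed. The calls at 7 days and their absence later are therefore not by themselves a shown difference between times.

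In saline aortas over 7, 14 and 28 days none of the 8 members tested passed the limma F test, beside 0.503 percent of all genes, and 3 had an unadjusted p under 0.05. Ifi44 was nearest (limma adjusted p = 0.137), with mean ratios of -1.51 at 7 days, -1.72 at 14 days and -0.95 at 28 days, and it passed without saline 28-day replicate 3. Across all 7 groups Oas1a was highest in dissected aortas, at 1.15, then in Ang II aortas of 7 days, at 0.84, of 28 days, at 0.20, and of 14 days, at -0.01. Below these lay the saline aortas of 28 days at -0.48, of 14 days at -0.54 and of 7 days at -0.61. In this order only the step between Ang II aortas of 14 days and saline aortas of 28 days was larger than both groups' SD.

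Ifi202b, chosen for its change in saline aortas, had log2 ratios of -4.16, -4.25, -5.59, -4.13 and -5.18 in saline aortas of 28 days, against -6.37 to -4.95 at 7 days and -6.44 to -5.85 at 14 days. The mean at 28 days was above those of 7 and 14 days by 1.12 and 1.54 on the log2 scale. Ang II aortas of 28 days ranged from -6.62 to -5.31 and were lower than saline aortas of 28 days by a difference of -1.16. These ratios rest on a very weak aorta signal: its median over 35 arrays was 32.2 fluorescence units, against 15400 for the reference, and it was well above background on 27 of 35 arrays.

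The change of Ifi202b in saline aortas depended on how the ratio was made. With the scanner software's own ratio, saline replicate 1 of 28 days stood at -4.73 and the other 4 aortas of that group at -7.65, -7.61, -8.20 and -7.44, inside the range of the other groups. Its aorta signal was 164 units, against 57.0, 37.8, 32.4 and 20.3 in the other 4. The difference between 28 and 7 days was then 0.68 over all arrays and 0.08 without that aorta. With loess it was 0.99 without that aorta. With median centring it was 0.98 over all arrays and 0.96 without that aorta. Under scale normalization between arrays the difference of Ang II minus saline at 28 days turned to 0.79. Other genes with low ratios, at 2 limits chosen after seeing the data, differed in the same direction: among 46 genes with a mean ratio below -3 the median difference of 28 minus 7 days in saline was 0.60 and 45 of the 46 were higher, and among the 9 below -4 it was 0.51.

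**Figure D3:**
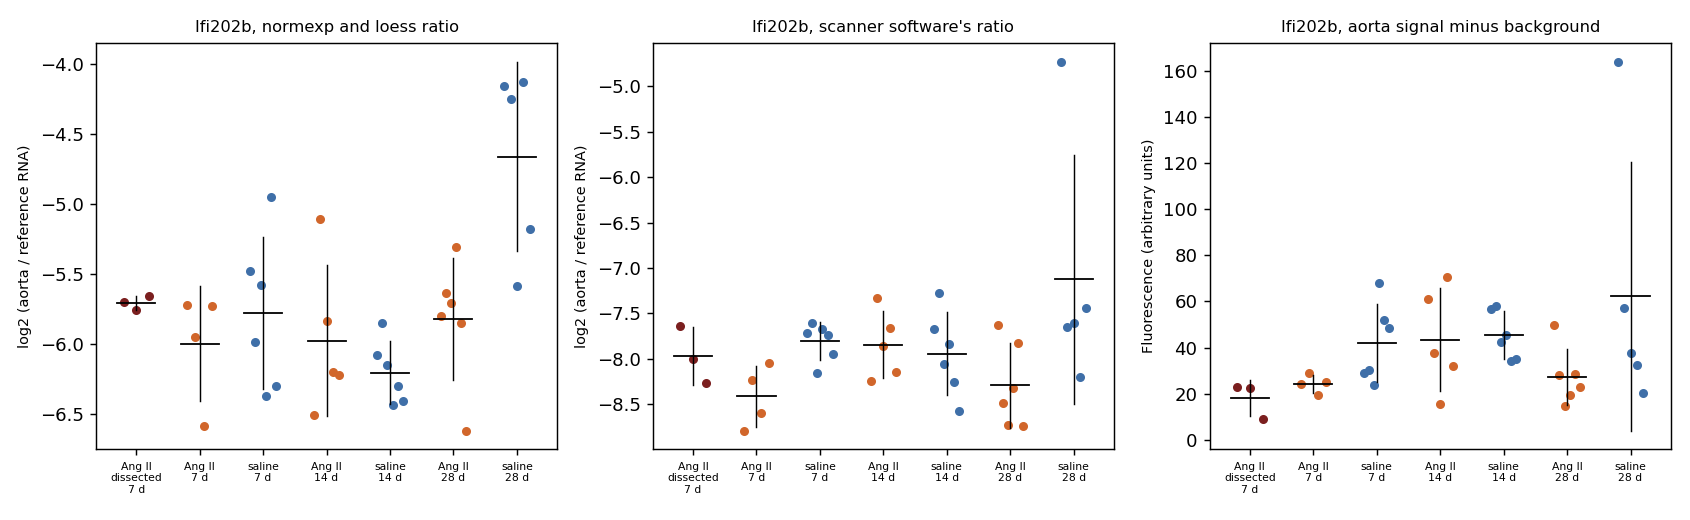
Ifi202b in 7 groups (horizontal axes), 1 point per aorta with mean and SD, as the loess-normalized log2 ratio, the scanner software's log2 ratio and the aorta fluorescence minus background (vertical axes). In the last 2 panels 1 saline aorta of 28 days stands apart, at -4.73 and at 164 units, and the others lie among the remaining groups.

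Other genes of the Ifi200 family differed less between saline aortas of 28 and 14 days. The log2 difference was 0.17 for Ifi207, -0.02 for Ifi204, -0.42 for Ifi205 and -0.40 for Ifi206, beside 1.54 for Ifi202b. Between 28 and 7 days it was 0.64 for Ifi207, 0.46 for Ifi204, 0.04 for Ifi205 and -0.16 for Ifi206, beside 1.12 for Ifi202b. Only Ifi202b was chosen on its saline values. Genes whose deviations from the group means were much like those of Ifi202b included Elf3, H60, Mab21l4 and Cyp2c55, with r from 0.88 to 0.90 over 35 arrays. Their median aorta signals were also low, from 19.1 to 42.8 units.

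Within groups most of the members went up and down together. The deviation of each aorta from its group mean was compared between each member and the mean of the other members, over 35 arrays that share normalization and scan days. The correlation was 0.84 for Usp18, 0.82 for Isg15, 0.69 for Oas1a, 0.61 for Ifit3 and for Irf7, 0.53 for Ifi44 and 0.48 for Ifit1. It was -0.16 for Ifit2 and -0.02 for Ifi202b. Without the 2 aortas that deviated most it was 0.80 for Usp18, 0.76 for Isg15, 0.57 for Oas1a, 0.52 for Ifit1, 0.48 for Ifit3 and 0.44 for Irf7 and for Ifi44.

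A few aortas stood apart from their groups in several members at once. In Ang II aortas of 28 days replicate 5 was highest for 6 of 8 members, with Usp18 at -0.91 beside -2.26 to -1.75 in the other 5. Ang II replicate 2 of 7 days was highest of its group for 8 of 8 members, and saline replicate 6 of 14 days lay above its group mean for 8 of 8. Ang II replicate 5 of 28 days also had the highest mean level of its group for the B cell list (2.98, group median -0.16), the T cell list (1.68, group median -0.06) and the macrophage list (2.69, group median 2.07), and it stood at 1.49 for the plasmacytoid dendritic cell list, whose level had the highest correlation of 15 marker lists with the members' mean deviation (0.51). Ang II replicate 6 of 28 days was also high for the B cell list (2.20) and the T cell list (1.59). For the plasmacytoid dendritic cell list it stood at 0.80, beside a group median of -0.08. This aorta lay above its group mean for 1 of 8 members. The part of these cells in the members' levels was not tested.

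**Figure D4:**
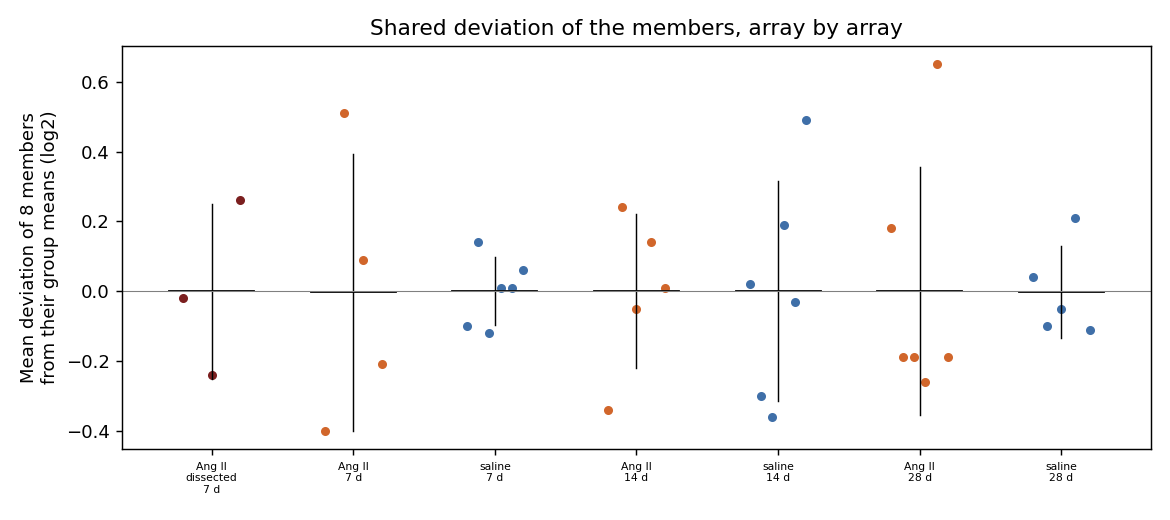
Mean deviation of the 8 members other than Ifi202b from their group means on the log2 scale (vertical axis), 1 point per aorta in 7 groups (horizontal axis), with the SD of each group as a vertical bar. Ang II replicate 5 of 28 days stands at 0.65, Ang II replicate 2 of 7 days at 0.51 and saline replicate 6 of 14 days at 0.49.

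Of the genes outside the pathway lists, those most like the mean of the 8 members were Rnf213, with r = 0.71 over 35 arrays, A630081D01Rik, Il18, Ripk3 and Tmem176a. Among 107 other interferon pathway genes with a value on every array, 35 (32.7 percent) had r above 0.5 with the members' mean, beside 2.22 percent of all genes. The highest were Mx1 at 0.81 and Oasl1 at 0.79.

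The rest of the pathway was described with 10 lists holding 136 genes, of which 109 were tested. After 7 days of Ang II 36 of the 109 were higher and 4 were lower, with a median log2 difference of 0.30, beside 0.00 for all genes, of which 14.5 percent were higher and 27.2 percent passed in either direction. In dissected aortas 38 were higher and 14 lower, against saline, with a median of 0.26, beside -0.04 for all genes, of which 18.9 percent were higher and 17.6 percent lower. At 14 and at 28 days 1 of the 109 was higher. Of all genes 2.4 percent passed in either direction at 14 days and 0.9 percent at 28 days, so 1 of 109 is near or below these shares.

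Of the ligands only 4 of 13 were tested and none passed at 7 days. Ifnb1, the type I interferon made first in most cells, was too dim to test, and Ifng differed by 0.08. Of the receptors and signalling genes, 3 of 12 were higher at 7 days, Ifngr2 by 0.95, Stat2 by 0.77 and Ifnar1 by 0.51, and Ifnar2 and Irf9, with differences of 0.01 and 0.37, did not pass.

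Sensors of nucleic acid gave the highest share of calls at 7 days, with 9 of 14 higher and 2, Mavs and Tbk1, lower, beside 14.5 percent of all genes higher and 27.2 percent in either direction. Zbp1, a sensor of unusual nucleic acid, was higher by 1.84 (SE 0.388), Tlr7, an endosomal RNA receptor, by 1.75 (SE 0.240) and Sting1, an adaptor for DNA sensing, by 1.72 (SE 0.310). Tlr7 was also the single pathway gene called at 28 days, by 1.09 (limma adjusted p = 0.0113). Among the oligoadenylate synthetases, the family of Oas1a, 4 of 9 were higher at 7 days, led by Oas1f at 2.01 (SE 0.283) and Oas2 at 1.86 (SE 0.283).

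Of 27 antiviral effectors 11 were higher and 1 was lower at 7 days. Ifitm3, which blocks viral entry, was higher by 1.07, and Ifi27 was lower, at -1.12. The gene called at 14 days was Lgals3bp, by 0.76 (limma adjusted p = 0.0426). The regulatory factors Irf5 and Irf8, both prominent in myeloid cells, were higher at 7 days by 1.49 and 1.42. Of the Ifi200 family 3 of 6 were higher, Ifi204 by 1.42, Ifi205 by 1.31 and Ifi207 by 1.20, and of 6 inhibitors of cytokine signalling 3 were higher, Ptpn6 by 1.57, Socs1 by 1.56 and Socs3 by 0.84, and 1 was lower, Ptpn11, at -0.52.

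Genes for interferon-gamma induced GTPases and antigen presentation differed little at 7 days, with 1 of 21 higher, Ciita, by 1.28, and a median of -0.08. In dissected aortas 1 of the 21, Cxcl10, was higher, by 1.23, and 5 were lower, among them Tgtp1 at -1.67 and B2m, the light chain of MHC class I, at -1.24, where 17.6 percent of all genes were lower, a share near that of the list. B2m was also lower in dissected than in non-dissected Ang II aortas, at -1.03 (limma adjusted p = 0.0211).

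**Figure D5:**
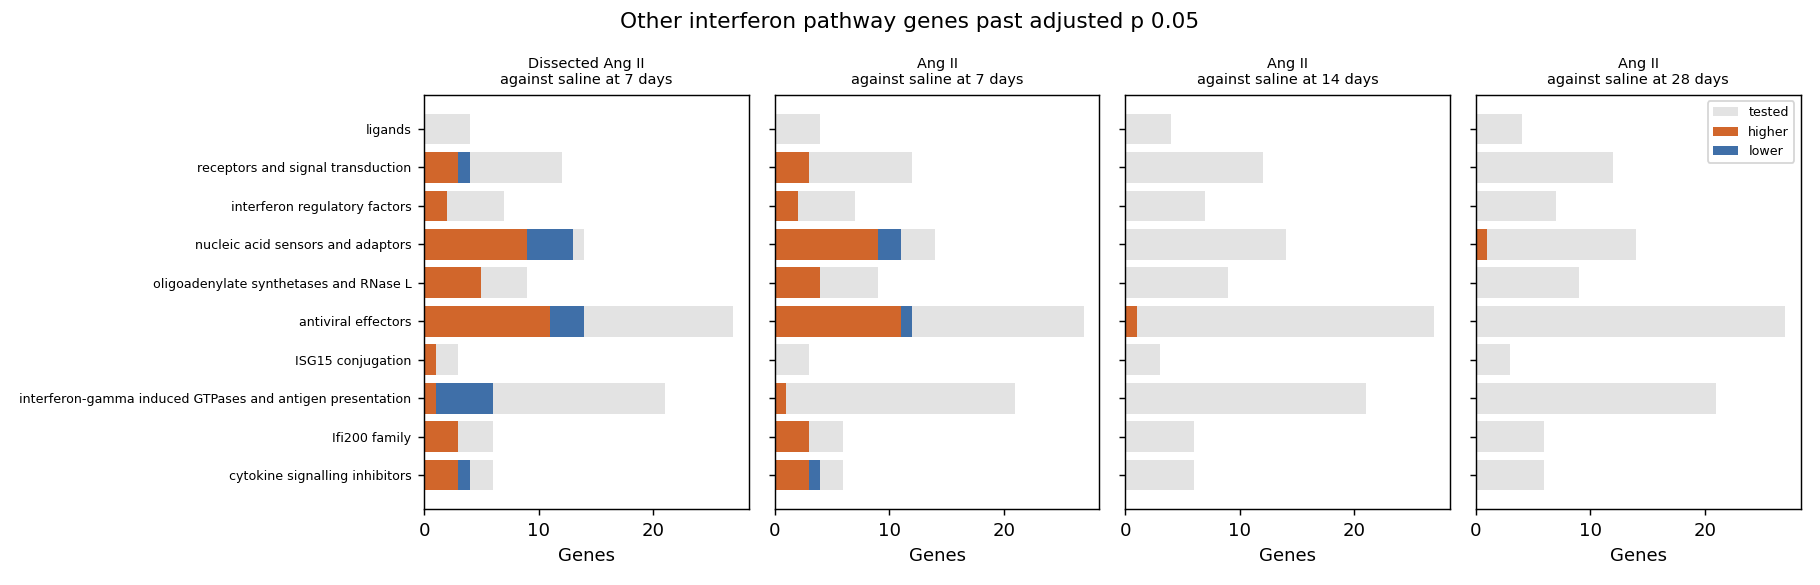
Genes of 10 interferon pathway lists (vertical axis) tested (grey bars), higher (orange) and lower (blue) at an adjusted p of 0.05, as counts (horizontal axes) in 4 comparisons with saline. Calls are frequent in both 7-day comparisons and number 1 each at 14 and 28 days.

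Markers of macrophages, monocytes and fibroblasts were also higher at 7 days. Of all genes 14.5 percent were higher after 7 days of Ang II and 27.2 percent passed in either direction. In dissected aortas 18.9 percent of all genes were higher and 17.6 percent lower. Lower after 7 days of Ang II were 5 of 6 chromaffin and sympathetic neuron markers (median -2.48) and 3 of 8 brown fat markers (median -0.96). In dissected aortas 0 of the 6 and 1 of the 8 were lower. After 7 days of Ang II 14 of 16 macrophage markers were higher, with a mean level of the list between 1.97 and 2.64 in Ang II aortas, against -0.28 to 0.64 in saline aortas, and in dissected aortas 15 of 16 were higher, with 2.30 to 3.12. At 14 days 2 of 16 macrophage markers were higher, where 2.4 percent of all genes passed in either direction. At 28 days 9 of 16 were higher, where 0.9 percent of all genes passed in either direction. Monocyte markers were higher for 3 of 4 in Ang II aortas and for 4 of 4 in dissected aortas at 7 days. Of 7 fibroblast markers 5 were higher after 7 days of Ang II, with a mean level of the list between 3.44 and 3.97 in Ang II aortas, against 0.77 to 2.69 in saline aortas, and 1 was higher in dissected aortas, whose level of 1.93 to 2.86 overlapped that of saline aortas. Of 6 markers of plasmacytoid dendritic cells, a main source of type I interferon, none passed at 7 days, and Siglech, their defining marker, was well above background on 7 of 35 arrays. The part of these cells in the levels of Oas1a, Isg15 and Irf7 at 7 days was not tested.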

How the data were processed

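The deposited scanner files, which the submitters' processing notes credit to Agilent Feature Extraction 9.5.3.1, hold each spot's fluorescence intensity and local background in 2 channels. Per the file headers the same software had also made a log10 ratio of aorta to reference. Log2 ratios came in the authors' series table, whose slope on the log10 ratio ran from 3.321 to 3.341, and any further normalization is not given in the sources used here.

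Background was corrected with normexp (offset 50) and ratios were normalized by loess within arrays in R 4.3.3 with limma 3.58.1. Spots of a probe were averaged, the brightest probe of a gene was kept, and a gene entered the test when 3 or more arrays had its aorta signal well above background. A limma fit over 35 arrays had a mean for each of 7 groups, with Benjamini-Hochberg adjustment over 18671 genes and calls at 0.05. The fit was tested on simulated data. The 9 members and the gene lists were chosen with earlier results of these data known, so the 7-day calls are no independent evidence. All 9 members were named, with up to 3 called genes per pathway list and comparison, a few fixed pathway genes and the 5 genes most alike, except that some genes are not reported here. Gene names came from a RefSeq table where accessions or symbols matched.

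Replicate numbers come from the sample titles. Deviations of same-numbered aortas correlated between 0.13 and 0.50 in the 3 pairs of dissected and saline aortas, above 0.1 in every pair, and not in every pair of the other comparisons. In the 5 pairs of Ang II and saline aortas at 14 days they correlated between 0.04 and 0.60, above 0.1 in 4. Alternatives were the scanner software's ratio (with its own background correction), the series table, median centring, scale normalization, no filter and the mean of probes. Others were slide, scan day and replicate blocks, fits within a scan day, array weights and fits of the compared groups alone. Each array was also left out in turn from the fit of all groups. Leaving out the 2 arrays farthest from their groups was chosen after seeing the data.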

Additional observations from a re-analysis of the deposited data

Results flagged for a closer look

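Of 54 combinations of a member and a group of 4 to 6 aortas, 1 held an aorta far from the others by Dixon's criterion, where chance gives about 1 in 20. Ifit3 stood at 0.20 in saline replicate 2 of 28 days, on the log2 ratio scale, while the other 4 aortas of that group ranged from 1.12 to 1.30.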

How the results depend on the processing

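Over 44 combinations of a member and a comparison, the alternative settings gave 1019 values, many of them from the same refit. Direction and side of the threshold stayed the same in 907 of these values. A call was lost in 20 and gained in 10, and the sign turned in 82, none of which involved a call. Calls that did not change at 14 days, 28 days or in saline cannot show stability, since few or no genes passed there.

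With 1 aorta left out at a time, the number of members called ranged from 2 to 3 for Ang II against saline at 7 days and from 2 to 3 for dissected aortas against saline, from 0 to 1 for Ang II at 14 days and for saline aortas over time, and from 0 to 2 for the effect differing among times, and stayed at 0 for Ang II at 28 days and for dissected against non-dissected aortas. The count for dissected against non-dissected aortas was 1 (Ifit2) with the scanner software's ratio, the series table, median centring and array weights. For Ang II at 28 days it was 1 (Oas1a) with scale normalization and 1 (Ifit2) within scan day 2. For Ang II at 14 days it was 1 (Ifit3) and for the effect differing among times 2 (Isg15 and Oas1a) with array weights. For Ang II at 7 days it was 0 within scan day 2, which holds 1 Ang II aorta of that time. With the replicate block it was 3 for both comparisons with saline at 7 days, and the blocked fit changed no call of a member. Ifi44 gained a call under 1 setting in each comparison with saline at 7 days. The cause of these changes was not tested.

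The sign turned only where neither value was called. With the scanner software's ratio and with the series table, Ifit1 was at 0.07 at 7 days and 0.03 at 28 days, Ifi44 at 1.00 at 28 days, Ifi202b at -0.16 in dissected aortas and Ifit3 at 0.07 in dissected against non-dissected aortas. With median centring the 14-day values were -0.02 for Isg15, -0.13 for Usp18, -0.04 for Ifi44 and -0.14 for Ifi202b. Dissected aortas then had -0.70 for Ifit1, -0.34 for Ifit3, -0.65 for Irf7, -0.47 for Usp18, -0.24 for Ifi44 and -0.67 for Ifi202b against saline, and -0.26 for Oas1a, -0.52 for Ifit1, -0.51 for Ifi44 and -0.27 for Ifi202b against non-dissected aortas. Scale normalization gave 0.01 for Ifit1 at 7 days, 0.13 for Ifi44 and 0.79 for Ifi202b at 28 days, and 0.19 for Usp18 in dissected against non-dissected aortas. Averaging probes put Ifi44 at 0.00 at 28 days. The slide block gave 0.26 for Ifit1 at 7 days, -0.02 for Ifi202b in dissected aortas and -0.18 for Ifit1 in dissected against non-dissected aortas, and the replicate block 0.09 for Ifit1 at 7 days and -0.06 for Ifi202b in dissected aortas. Within scan day 1 Ifit1 was at 0.30 at 7 days, and at 28 days Ifit1 was at 0.25, Ifit2 at 0.12, Irf7 at -0.13 and Usp18 at -0.25. Within scan day 2 Ifit2 was at 0.10 at 7 days, Ifi202b at -0.02 at 14 days, Ifit1 at -0.17 and Irf7 at -0.10 in dissected aortas, and Ifi44 at 0.00 in dissected against non-dissected aortas. Array weights gave 0.08 for Ifit1 at 7 days, 0.06 at 28 days, -0.19 in dissected aortas and -0.26 in dissected against non-dissected aortas. Without the 2 aortas farthest from their groups, a choice made after seeing the data, Irf7 was at -0.01 and Usp18 at -0.02 at 28 days, and Ifit3 at 0.16 and Usp18 at 0.09 in dissected against non-dissected aortas.

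With 1 aorta left out, signs turned for Ifit1, whose values ranged from -0.35 to 0.17 at 7 days, -0.15 to 0.04 at 28 days, -0.13 to 0.21 in dissected aortas and -0.13 to 0.38 in dissected against non-dissected aortas. They also turned in dissected aortas for Irf7 (-0.06 to 0.22) and Ifi202b (-0.05 to 0.24), at 28 days for Irf7 (-0.01 to 0.30) and Usp18 (-0.02 to 0.25), and in dissected against non-dissected aortas for Ifi44 (-0.06 to 0.31), Ifit3 (-0.20 to 0.16) and Usp18 (-0.30 to 0.20). Low signal limits Ifi202b, Ifi44, Ifit2 in dissected aortas and the second probes of Ifit2 and Ifi44.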
